A study of Homo sapiens with 8 samples.

Results

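Nascent transcription was examined for 10 genes that encode aminopeptidases, dipeptidyl peptidases, neprilysin and glutaminyl cyclases, among 27945 genes in the count table. The members were found by gene symbol: ANPEP, ENPEP, LNPEP, ERAP1 and ERAP2, then DPP4 and FAP, then MME, then QPCT and QPCTL. The group was chosen by its relation to ANPEP and QPCT, which stand on the study's list of genes higher in senescence and lower after METTL3 or METTL14 knockdown. That list was selected on these same libraries, so the values of ANPEP and QPCT in every comparison of the groups it used are given as a description with no test. Of the 10 members, 9 passed the filter on low counts; ENPEP did not. Calls are therefore counted over the 8 members other than ANPEP and QPCT, of which 7 were tested.

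The cells were IMR90 primary human lung embryonic fibroblasts kept at 2% oxygen and carrying a fusion of the estrogen receptor and an activated H-RAS (ER:RAS) that is switched on by 4-hydroxytamoxifen (4-OHT). Control cells were labelled wild type with no hairpin named. The other 3 groups received 100 nM 4-OHT, became senescent, were harvested on day 6 and carried shControl, shMETTL3 or shMETTL14. Each of the 4 groups had 2 fastGRO-seq libraries, a run-on assay that labels and sequences RNA still being made in nuclei. The comparison of senescent shControl cells with control cells therefore holds the drug, the oncogene and the hairpin vector together, and 1 hairpin sequence stood for each target. Senescence here was that driven by a single oncogene in a single fibroblast line.

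Surface peptidases cut short peptides outside the cell or in the endoplasmic reticulum. The M1 aminopeptidases remove single residues from the amino terminus: aminopeptidase N (ANPEP, also CD13) and aminopeptidase A (ENPEP) act at the cell surface, LNPEP at the surface and in endosomes, and ERAP1 and ERAP2 in the endoplasmic reticulum, where they trim peptides for MHC class I. DPP4 and FAP cleave after proline near the amino terminus, and FAP is a known marker of activated fibroblasts. Neprilysin (MME, also CD10) cuts inside small peptides such as substance P and amyloid beta. The glutaminyl cyclases QPCT, secreted, and QPCTL, resident in the Golgi, turn an amino-terminal glutamine or glutamate into pyroglutamate, which shields chemokines such as CCL2 from aminopeptidases. METTL3 and METTL14 form the core of the enzyme that writes m6A on RNA.

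Libraries held 14897360 to 20306299 counts. Ribosomal RNA rows took 86.2% to 92.5% of them, and 1513930 to 2048475 counts lay on other genes. METTL3 had 77 and 47 reads in senescent shControl cells and 16 and 19 after shMETTL3, a log2 fold change of -2.04 (SE 0.31, edgeR adjusted p = 1.8e-05). METTL14 had 24 and 28 reads in senescent shControl cells and 18 and 14 after shMETTL14. The log2 fold change was -0.86 (SE 0.34, edgeR adjusted p = 0.076), so a lower METTL14 signal did not pass the test in nascent RNA. METTL14 was already lower in senescent shControl than in control cells (-0.76, SE 0.28, edgeR adjusted p = 0.047). The study examined the knockdowns by western blot, and nascent reads do not measure protein. All 11 fibroblast markers were detected in every library, while 4 epithelial markers summed to at most 2 reads, 4 endothelial markers to at most 10 and 5 leukocyte markers to at most 7. Raw reads summed over the fibroblast markers, not scaled to library size, were 32746 to 34687 in control libraries and 16144 to 18455 in senescent shControl. They were 14648 to 17120 after shMETTL3 and 11594 to 12130 after shMETTL14. Much of the drop from control to senescent shControl lay in 2 collagen genes. COL1A1 had 9746 and 8732 reads in control and 2099 and 2960 in senescent shControl. COL1A2 had 7541 and 7377, then 1637 and 2303. The part of the fibroblast markers in the results below was not tested. In bulk libraries, fewer cells of a type and less RNA per cell cannot be told apart.

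Promoter sequence is shown for ANPEP, QPCT and MME, the members with the largest rises in senescent shControl cells, and for QPCTL, the paralogue of QPCT. RefSeq windows were matched for 9 of the 10 members by symbol, 16 windows in all, and FAP is named only. Whether a window lies at the start of the transcript that was counted was not checked. Each sequence below is the 250 bases before an annotated start on GRCh38.p14, a later build than the hg19 of the counts, read 5′ to 3′. Capitals mark a match, on either strand, to 1 of the 4 motifs searched: TGANTCA (AP-1), GGNNTTTCC (NF-kB), TTGCNNAA (C/EBP) and TATAAA (the TATA box).
ANPEP, upstream start, GRCh38.p14 chr15:89814853-89815102, minus strand: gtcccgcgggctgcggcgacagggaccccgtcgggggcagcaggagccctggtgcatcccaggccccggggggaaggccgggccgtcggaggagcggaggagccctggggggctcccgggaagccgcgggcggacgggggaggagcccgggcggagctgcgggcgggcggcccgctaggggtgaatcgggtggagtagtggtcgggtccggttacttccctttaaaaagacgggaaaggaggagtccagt
ANPEP, downstream start, GRCh38.p14 chr15:89806629-89806878, minus strand: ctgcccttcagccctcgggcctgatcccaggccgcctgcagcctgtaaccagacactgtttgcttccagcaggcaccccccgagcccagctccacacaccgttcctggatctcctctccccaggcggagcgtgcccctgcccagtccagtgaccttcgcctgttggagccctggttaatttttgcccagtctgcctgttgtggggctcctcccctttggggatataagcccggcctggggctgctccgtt
QPCT, GRCh38.p14 chr2:37344380-37344629, plus strand: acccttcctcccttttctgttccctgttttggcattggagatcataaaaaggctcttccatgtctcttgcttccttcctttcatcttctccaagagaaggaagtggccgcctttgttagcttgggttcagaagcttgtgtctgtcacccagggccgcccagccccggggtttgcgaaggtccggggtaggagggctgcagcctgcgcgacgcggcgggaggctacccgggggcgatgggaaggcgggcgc
QPCTL, GRCh38.p14 chr19:45692416-45692665, plus strand: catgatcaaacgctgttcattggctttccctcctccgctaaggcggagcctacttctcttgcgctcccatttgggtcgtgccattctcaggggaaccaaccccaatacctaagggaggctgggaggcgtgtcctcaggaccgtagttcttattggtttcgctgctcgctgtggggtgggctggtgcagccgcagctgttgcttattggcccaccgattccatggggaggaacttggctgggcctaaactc
MME, GRCh38.p14 chr3:155079422-155079671, plus strand: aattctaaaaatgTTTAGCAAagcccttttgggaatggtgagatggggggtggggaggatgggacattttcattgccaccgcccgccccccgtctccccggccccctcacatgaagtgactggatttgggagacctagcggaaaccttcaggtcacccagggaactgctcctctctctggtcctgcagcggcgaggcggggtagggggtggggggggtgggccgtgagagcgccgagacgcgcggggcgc
Of these 5 windows, only that of MME, the first of its 4, held a match, to the C/EBP letters at 237 bases before the start. Across all 35116 windows of the same length, 6.57% held the AP-1 letters, 5.48% the NF-kB letters, 9.05% the C/EBP letters and 10.7% the TATA letters. GC content was 74% and 64.4% at the upstream and downstream starts of ANPEP, 60% at QPCT, 57.6% at QPCTL and 63.2% at MME, against a median of 58% over all windows. Matches are descriptions of letters in these windows.

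In senescent shControl cells against control cells, 4 of the 7 tested members rose (LNPEP, ERAP2, DPP4 and MME) and 1 fell (FAP), where 13.3% of all 12844 genes tested were called higher and 13.3% lower. The median log2 fold change of the 7 was 0.75 against -0.03 for all genes. After shMETTL3, set against senescent shControl cells, 3 members rose (DPP4, FAP and MME) and 0 fell, with 12.3% of all genes called higher and 11.2% lower. The median of the 7 was 0.29, and that of all genes -0.03. After shMETTL14, 0 rose and 3 fell (ERAP2, FAP and MME), where 9.15% of all genes were called higher and 12% lower. Here the 7 had a median of -0.33, and all genes of -4.9e-05. Both counts of 0 were also 0 at an unadjusted p under 0.05 and with DESeq2. The knockdown comparisons share the same senescent shControl libraries. ANPEP and QPCT, the members chosen by these contrasts, were higher in senescent shControl cells and lower after both knockdowns.

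**Figure D1:**
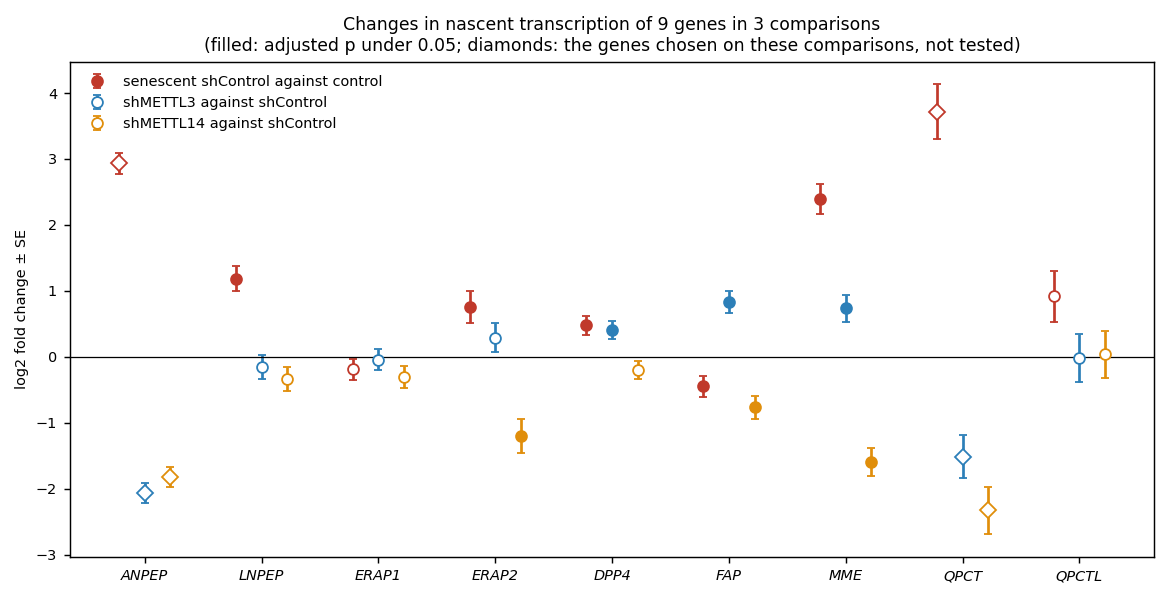
Log2 fold changes with standard errors (y axis) of the 9 members that passed the filter, for senescent shControl against control, shMETTL3 against shControl and shMETTL14 against shControl; filled points passed an adjusted p of 0.05 and diamonds mark ANPEP and QPCT, which were not tested. MME rose by 2.40 in senescence, rose by a further 0.73 after shMETTL3 and stood at -1.60 after shMETTL14.

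These counts depended on how libraries were scaled. TMM factors were 0.747 and 0.806 in senescent shControl libraries and 0.942 to 1.27 in the others, and ribosomal RNA rows took 92.1% and 92.5% of the senescent shControl totals. With library size alone, the median of all genes moved to -0.53 in senescence, 0.58 after shMETTL3 and 0.35 after shMETTL14. Under that scaling DPP4 in senescence went from 0.48 to -0.02, a difference of 0.51 from the shifted median. All values below use TMM, and normalized counts are reads divided by the TMM library size and brought to 1 common size.

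ANPEP (hg19 chr15:90328126-90358072, minus strand) held 1571 reads over the 8 libraries. Its normalized counts were 64.6 and 68.8 in control, 521 and 499.7 in senescent shControl, 133 and 111 after shMETTL3 and 159.9 and 128 after shMETTL14. The senescent shControl libraries stood above all the others, the knockdown libraries lay between them and control, and the knockdown groups overlapped each other. The mean was 66.7 ± 2.93 (SD, n = 2) in control and 511 ± 15.3 in senescent shControl cells, 7.65-fold higher and a log2 fold change of 2.93 (SE 0.16). The log2 fold change against senescent shControl cells was -2.06 (SE 0.15) after shMETTL3 and -1.82 (SE 0.15) after shMETTL14. Of the rise over control, 12.5% was left after shMETTL3 (15% and 10% by library) and 17.5% after shMETTL14 (21% and 13.9%), and both stayed above control, by 0.87 (SE 0.18) and 1.11 (SE 0.18) on the log2 scale.

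ENPEP (chr4:111397229-111484493, plus strand) had 7 reads in all. It had 1 and 0 reads in control libraries, 0 and 1 in senescent shControl, 0 and 4 after shMETTL3 and 0 and 1 after shMETTL14. These values lie at or near the floor of 3 counts in every group, so no fold is given; a difference was not detectable at this depth.

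LNPEP (chr5:96271346-96365115, plus strand), known for cleaving oxytocin and vasopressin, had normalized counts of 89.4 and 69.7 in control and 176 and 185 in senescent shControl libraries. It had 136 and 187 after shMETTL3 and 131 and 156 after shMETTL14. All 6 senescent libraries stood above both control libraries, and the shMETTL3 libraries overlapped senescent shControl. LNPEP rose 2.27-fold in senescence (log2 fold change 1.18, SE 0.19, edgeR adjusted p = 2.0e-05). Neither knockdown passed the test, with log2 fold changes of -0.15 (SE 0.18, edgeR adjusted p = 0.57) after shMETTL3 and -0.33 (SE 0.18, edgeR adjusted p = 0.20) after shMETTL14.

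ERAP1 (chr5:96096514-96143892, minus strand) and ERAP2 (chr5:96211643-96255420, plus strand) are neighbours of LNPEP: the stretch from ERAP1 to ERAP2 is 67.8 kb and that from ERAP2 to LNPEP 15.9 kb. ERAP1 had normalized counts of 224 and 173 in control, 182 and 166 in senescent shControl, 166 and 171 after shMETTL3 and 138 and 143 after shMETTL14. The shMETTL14 libraries were the lowest, and those of senescent shControl overlapped both control and shMETTL3. ERAP1 passed neither the senescence test nor a knockdown test, with log2 fold changes of -0.19 in senescence (edgeR adjusted p = 0.41), -0.04 after shMETTL3 (0.88) and -0.31 after shMETTL14 (0.20). With library size alone it was called at -0.69 in senescence (edgeR adjusted p = 0.0037) and 0.57 after shMETTL3 (0.018). It shares 13.9 kb, 29.3% of its length, with CAST on the opposite strand, and reads of overlapping genes could not be told apart.

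ERAP2 had normalized counts of 49.6 and 42.7 in control, 72.1 and 83.5 in senescent shControl, 78.0 and 112 after shMETTL3 and 35.0 and 32.6 after shMETTL14. The shMETTL14 libraries lay below every other library, and those of shMETTL3 overlapped senescent shControl. ERAP2 rose 1.69-fold in senescence (log2 fold change 0.75, SE 0.24, edgeR adjusted p = 0.018). This call was lost without control replicate 2 (edgeR adjusted p = 0.13), without senescent shControl replicate 2 (0.15), with DESeq2 (0.14) and with library size alone, where the change was 0.26 (0.43). After shMETTL14 ERAP2 fell, to 0.435 of senescent shControl (log2 fold change -1.20, SE 0.25, edgeR adjusted p = 0.0010). After shMETTL3 the change was 0.29 (SE 0.22, edgeR adjusted p = 0.36); with library size alone it was 0.91 (edgeR adjusted p = 0.0014).

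**Figure D2:**
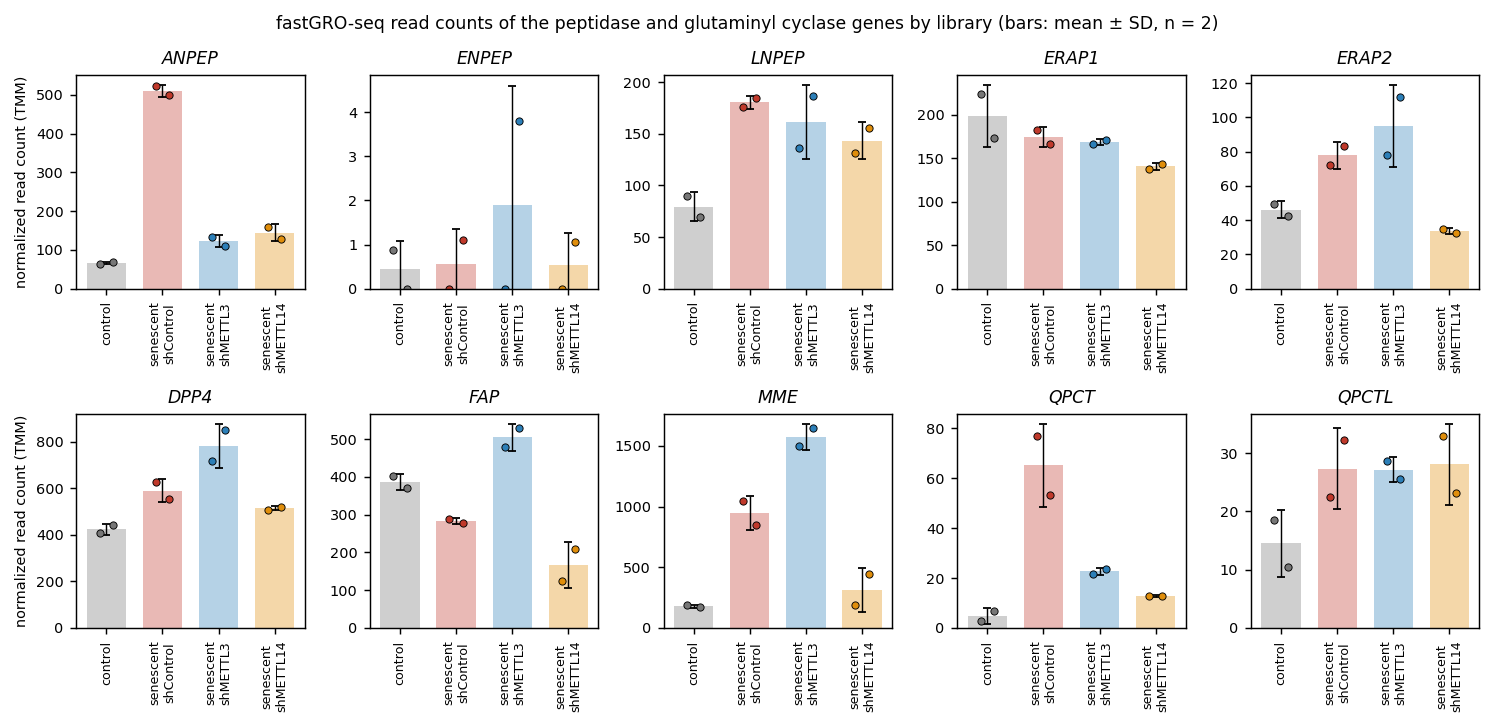
Normalized read counts (y axis, TMM) of each of the 10 members in the 8 libraries, as points, with the mean and SD of the 2 libraries of each group (x axis) as bars. ANPEP and QPCT peak in senescent shControl cells, whereas DPP4, FAP and MME peak after shMETTL3.

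DPP4 (chr2:162848755-162931052, minus strand), also known as CD26, trims chemokines and incretin hormones. Its normalized counts were 407 and 441 in control, 625 and 554 in senescent shControl, 716 and 849 after shMETTL3 and 508 and 520.2 after shMETTL14. The shMETTL3 libraries were the highest and the control libraries the lowest, with no overlap between any groups. DPP4 rose 1.39-fold in senescence (log2 fold change 0.48, SE 0.14, edgeR adjusted p = 0.011). It rose 1.33-fold further after shMETTL3 (0.41, SE 0.14, edgeR adjusted p = 0.029), and after shMETTL14 its change of -0.20 (SE 0.14, edgeR adjusted p = 0.34) did not pass the test. The senescence call was lost without control replicate 1 (edgeR adjusted p = 0.13), control replicate 2 (0.050) or senescent shControl replicate 1 (0.17). The shMETTL3 call was lost in 7 alternatives, among them DESeq2 (adjusted p = 0.058), shMETTL3 replicate 2 left out (edgeR adjusted p = 0.23) and each control and senescent shControl library left out (0.0615 to 0.31).

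FAP (chr2:163027194-163100067, minus strand) lies in the same region of chromosome 2 as DPP4. Normalized counts were 402 and 372 in control, 288 and 278 in senescent shControl, 480.2 and 529.8 after shMETTL3 and 124 and 209.6 after shMETTL14. The groups did not overlap: shMETTL3 libraries stood above control, and shMETTL14 libraries below senescent shControl. FAP fell in senescence by 0.45 on the log2 scale (SE 0.16, edgeR adjusted p = 0.042). That call was lost with DESeq2 (adjusted p = 0.19), without ribosomal RNA rows (edgeR adjusted p = 0.0559) and when any control or senescent shControl library was left out (0.0935 to 0.22). FAP rose 1.78-fold after shMETTL3 (0.83, SE 0.16, edgeR adjusted p = 0.00041).

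After shMETTL14, FAP fell to 0.588 of senescent shControl cells (log2 fold change -0.77, SE 0.18, edgeR adjusted p = 0.0023). The change was -0.46 (edgeR adjusted p = 0.11) without shMETTL14 replicate 1 and -1.19 without replicate 2, and with library size alone it was -0.43 (edgeR adjusted p = 0.087). The uncharacterized gene LOC101929532 shares 2050 bases (2.81% of FAP) on the opposite strand and had 3 to 25 reads a library.

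MME (chr3:154741913-154901518, plus strand) had the most reads of the members, 5861 in all. Its normalized counts were 188 and 172 in control and 1049 and 846 in senescent shControl libraries. They were 1500 and 1649 after shMETTL3 and 186 and 442 after shMETTL14. Every shMETTL3 library stood above senescent shControl, and every shMETTL14 library below it, while 1 shMETTL14 library lay within the control range. MME rose 5.27-fold in senescence (log2 fold change 2.40, SE 0.23, edgeR adjusted p = 3.8e-09). It rose 1.66-fold further after shMETTL3 (0.73, SE 0.20, edgeR adjusted p = 0.0098), a call lost with DESeq2 (adjusted p = 0.29) and without senescent shControl replicate 2 (edgeR adjusted p = 0.19). It fell to 0.332 of senescent shControl after shMETTL14 (-1.60, SE 0.22, edgeR adjusted p = 4.4e-06), with -1.12 when shMETTL14 replicate 1 was left out and -2.35 when replicate 2 was. Of the rise over control, 0.816% was left in 1 shMETTL14 library and 34.2% in the other, while the excess over control after shMETTL3 was 182% of it.

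QPCT (chr2:37571753-37600465, plus strand) was the member with the lowest control level that passed the filter, with 3 and 8 reads in the control libraries. Its normalized counts were 2.66 and 6.97 in control, 76.8 and 53.4 in senescent shControl, 21.5 and 23.7 after shMETTL3 and 13 and 12.6 after shMETTL14. The 4 groups did not overlap. The mean was 13.5-fold higher in senescent shControl than in control cells (log2 fold change 3.72, SE 0.42). With so few control reads the value was 3.20 without control replicate 1 and 4.55 without control replicate 2. The log2 fold change against senescent shControl was -1.51 (SE 0.33) after shMETTL3 and -2.33 (SE 0.36) after shMETTL14. Of the rise, 29.6% was left after shMETTL3 and 13.3% after shMETTL14.

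QPCTL (chr19:46195741-46207248, plus strand) had 191 reads over the 8 libraries. Normalized counts were 18.6 and 10.4 in control, 22.5 and 32.3 in senescent shControl, 28.7 and 25.6 after shMETTL3 and 33.0 and 23.2 after shMETTL14. All senescent libraries stood above control, and the senescent groups overlapped. The senescence change of 0.92 on the log2 scale (SE 0.39, edgeR adjusted p = 0.086) did not pass the test but passed it in 3 alternatives (0.035 to 0.049), and neither knockdown did (log2 fold changes -0.02 and 0.04, edgeR adjusted p = 0.98 and 0.96). The standard error after each knockdown was 0.36, wider than for the members with more reads apart from QPCT.

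The gene nearest to QPCT, PRKD3, a protein kinase D gene on the opposite strand 27.5 kb before it, had 167 and 196 reads in control, 555 and 490 in senescent shControl, 343 and 476 after shMETTL3 and 162 and 200 after shMETTL14. PRKD3 rose in senescence (log2 fold change 1.91, SE 0.16, edgeR adjusted p = 4.6e-10) and fell after shMETTL3 (-0.58, SE 0.15, edgeR adjusted p = 0.0061) and after shMETTL14 (-1.69, SE 0.16, edgeR adjusted p = 1.3e-08). CDC42EP3, the nearest gene on the other side at 269 kb, had a log2 fold change of -1.17 (SE 0.14, edgeR adjusted p = 1.6e-07) in senescence. It passed neither knockdown test (-0.02 after shMETTL3 and -0.39 after shMETTL14, edgeR adjusted p = 0.95 and 0.062). C15orf38-AP3S2, 15.8 kb from ANPEP, fell in senescence (-0.61, SE 0.20, edgeR adjusted p = 0.027). It passed neither knockdown test (0.005 and 0.14, edgeR adjusted p = 0.99 and 0.70). SNRPD2, which starts 166 bases from QPCTL on the opposite strand, had one of 0.08 (edgeR adjusted p = 0.84).

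The 2 knockdowns were then set against each other directly. In shMETTL14 against shMETTL3 cells, 4 of the 7 members other than ANPEP and QPCT were lower and 0 higher (also 0 at an unadjusted p under 0.05 and with DESeq2), where 18.7% of all genes were called lower and 16.5% higher. MME had a log2 fold change of -2.33 (SE 0.22, edgeR adjusted p = 9.9e-09) and FAP of -1.60 (SE 0.17, edgeR adjusted p = 5.4e-08). ERAP2 stood at -1.49 (SE 0.24, edgeR adjusted p = 2.8e-05) and DPP4 at -0.61 (SE 0.14, edgeR adjusted p = 0.00099). In all 4 genes both shMETTL14 libraries lay below both shMETTL3 libraries, and the calls held in all 15 alternatives. The size for MME depended on single libraries: -1.85 without shMETTL14 replicate 1 and -3.07 without replicate 2. LNPEP (-0.18, edgeR adjusted p = 0.46), ERAP1 (-0.26, 0.22) and QPCTL (0.05, 0.93) did not pass. ANPEP stood at 0.24 (SE 0.17) and QPCT at -0.82 (SE 0.41), given with no test because their list was selected with the knockdown groups.

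**Figure D3:**
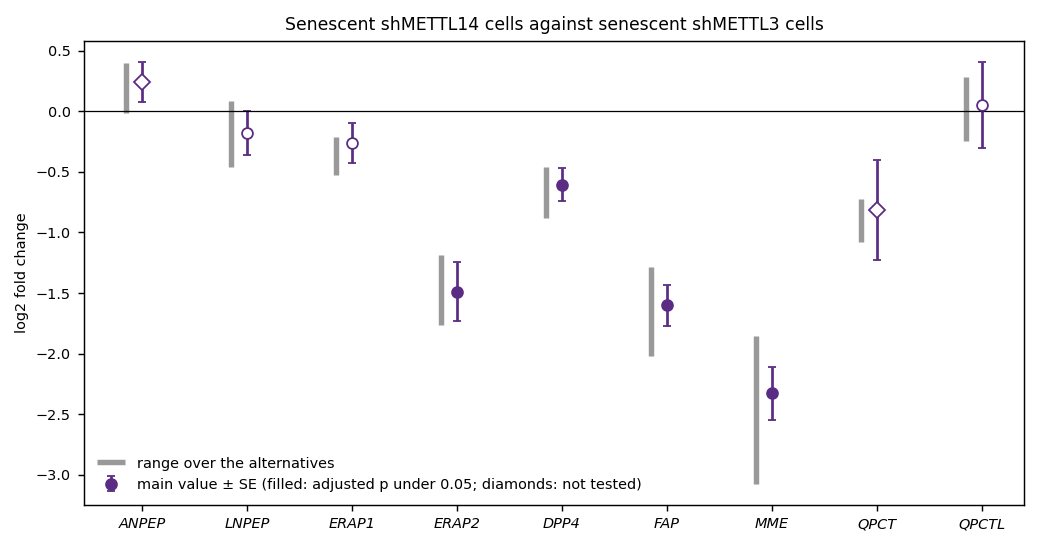
Log2 fold change (y axis) of shMETTL14 against shMETTL3 cells for the 9 members that passed the filter, as points with standard errors. Grey bars beside them give the range over the alternatives. Diamonds mark ANPEP and QPCT, given with no test. ERAP2, DPP4, FAP and MME lie below 0 over their whole range, as do ERAP1, which was not called, and QPCT, and ANPEP, LNPEP and QPCTL reach across 0.

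Against control cells rather than senescent shControl cells, 4 members were higher after shMETTL3 (LNPEP, ERAP2, DPP4 and MME) and 0 lower (also 0 at an unadjusted p under 0.05 and with DESeq2), with 20.1% of all genes called higher and 20.1% lower. MME stood 8.77-fold above control there (log2 fold change 3.13, SE 0.23, edgeR adjusted p = 1.4e-11). LNPEP was at 1.03, ERAP2 at 1.05 and DPP4 at 0.88 on the log2 scale, while FAP at 0.38 (edgeR adjusted p = 0.052) missed the threshold and passed it in 7 alternatives.

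After shMETTL14, 3 members were higher than in control (LNPEP, MME and QPCTL) and 2 lower (ERAP1 and FAP), with 19.7% of all genes higher and 20.5% lower. FAP had a log2 fold change of -1.22 (SE 0.17, edgeR adjusted p = 1.9e-06), LNPEP of 0.85 (SE 0.19, edgeR adjusted p = 0.00078) and ERAP1 of -0.50 (SE 0.16, edgeR adjusted p = 0.014). MME, at 0.80 (SE 0.23, edgeR adjusted p = 0.0068), overlapped control, and without shMETTL14 replicate 2 it was at 0.06 (edgeR adjusted p = 0.84); it also lost its call without control replicate 2 (0.062) and with DESeq2 (adjusted p = 0.19). QPCTL, at 0.95 (SE 0.38, edgeR adjusted p = 0.049), lost its call in 8 alternatives, and ERAP1 lost its call in 4. These comparisons share control libraries with the senescence comparison.

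Levels were compared between genes per length, as RPKM, in which reads are scaled to gene length in kb and to library size. In control cells FAP (0.296 ± 0.0164, SD, n = 2) and DPP4 (0.288 ± 0.0160) were highest and overlapped, followed by ERAP1 (0.234), ANPEP (0.124), QPCTL (0.0705), MME (0.0628), ERAP2 (0.0588), LNPEP (0.0474) and QPCT (0.00935); QPCTL overlapped MME, and MME overlapped ERAP2. In senescent shControl cells ANPEP (0.952 ± 0.0285) came first without overlap, then DPP4 (0.4 ± 0.0341) and MME (0.331 ± 0.0502), then FAP (0.217) and ERAP1 (0.205), which overlapped. QPCTL, QPCT, LNPEP and ERAP2 followed between 0.133 and 0.0992, each overlapping the next. After shMETTL3 the order opened with MME (0.551 ± 0.0369) and DPP4 (0.531 ± 0.0636), which overlapped, before FAP (0.387) and ANPEP (0.228). After shMETTL14 it opened with DPP4 (0.349 ± 0.00598) and ANPEP (0.269 ± 0.0414), then ERAP1 (0.166), with QPCTL, FAP, MME and LNPEP overlapping in turn at 0.136 to 0.0854 and ERAP2 at 0.0431. ANPEP moved from the 61.5th percentile of tested genes in control to the 94.5th in senescent shControl cells, and QPCT from the 6.66th to the 61.7th.

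**Figure D4:**
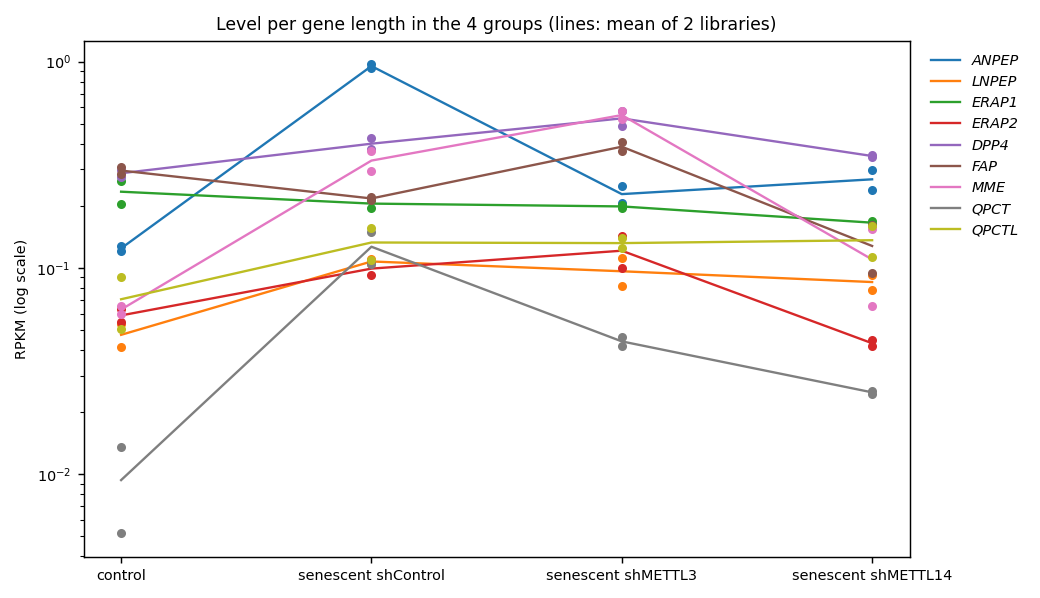
RPKM (y axis, log scale), reads scaled to gene length and library size, of the 9 members that passed the filter in the 4 groups (x axis), with points for libraries and lines through the means of 2 libraries. ANPEP is the highest in senescent shControl cells at 0.952, and QPCT rises from 0.00935 in control.

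Related enzymes and substrates were read from lists, with the percentages called among all genes as above. Of 6 other M1 aminopeptidases listed, 5 were tested: 2 fell in senescence, 1 rose after shMETTL3 and 1 after shMETTL14. TRHDE, which inactivates thyrotropin-releasing hormone, had a log2 fold change of -0.76 (SE 0.14, edgeR adjusted p = 0.00020) in senescence, 1.44 (SE 0.14, edgeR adjusted p = 3.9e-08) after shMETTL3 and 0.50 (SE 0.15, edgeR adjusted p = 0.016) after shMETTL14. C9orf3 (AOPEP) fell by 0.81 in senescence. LTA4H, leukotriene A4 hydrolase, is also of the M1 family but stood on the next list; it rose by 0.67 in senescence and passed neither knockdown test. That list, of aminopeptidases and dipeptidases mostly of other families, had 18 of 24 members tested, with 3 higher and 2 lower in senescence, 2 higher and 2 lower after shMETTL3 and 1 higher and 2 lower after shMETTL14. METAP1 and TPP1 rose beside LTA4H in senescence, with log2 fold changes of 0.55 and 0.54, and PEPD, which splits proline dipeptides, fell by 0.92; METAP1D, with a mean of 15.8 reads, also fell (-1.96). After shMETTL3, TPP2 (0.65) and XPNPEP3 (0.55) rose, and APEH (-1.33) and METAP1 (-0.75) fell. After shMETTL14, PEPD rose by 0.83, and PGPEP1 (-0.90) and CNDP2 (-0.87) fell. Proline-specific peptidases related to DPP4 had 6 of 8 tested, of which PREPL was called in senescence (0.46) and after shMETTL14 (-0.47), and PREP was higher in shMETTL14 than in shMETTL3 cells (0.72) and control cells (0.76).

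Metallopeptidases related to neprilysin or processing peptides had 12 of 18 tested, with 1 higher (CPD) and 1 lower (CPQ, -0.65) in senescence. After shMETTL3, 3 rose (CPM, CPA4 at 0.92 and CPQ at 0.85) and 2 fell (NLN at -0.98 and MMEL1), and after shMETTL14, 2 rose (CPA4 at 2.33 and CPM) and 2 fell (CPD and ECE1 at -0.50). CPD, a carboxypeptidase of the secretory route, rose by 0.84 in senescence (SE 0.15, edgeR adjusted p = 0.00010) and had a log2 fold change of -1.44 (SE 0.16, edgeR adjusted p = 1.6e-07) after shMETTL14. CPM, a surface carboxypeptidase, rose by 2.28 (SE 0.37, edgeR adjusted p = 4.8e-05) after shMETTL3 and 1.47 (SE 0.40, edgeR adjusted p = 0.0099) after shMETTL14. MMEL1, the closest relative of MME, had a mean of 6.75 reads.

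Of the angiotensin system and kinin receptors, 5 of 12 were tested, with 1 higher in senescence (ATP6AP2, 0.96), 1 higher after shMETTL3 (AGTR1, 1.74) and 2 higher and 2 lower after shMETTL14. The bradykinin receptors moved apart after shMETTL14: BDKRB1 at 1.42 (SE 0.18, edgeR adjusted p = 1.5e-06) and BDKRB2 at -1.79 (SE 0.16, edgeR adjusted p = 5.8e-09). AGTR1, with a mean under 20 reads, was higher (1.41) and ATP6AP2 lower (-1.05). Antigen processing partners of ERAP1 and ERAP2 had 17 of 20 tested, with 4 higher and 1 lower in senescence and 1 higher and 4 lower after each knockdown. In senescence CANX, a chaperone of class I chains, rose by 0.61, PDIA3 by 0.62, TAPBP by 1.16 and HLA-C by 0.51, and NLRC5, a transactivator of class I genes, fell by 1.21. After shMETTL3, CANX (-0.99), HLA-E (-0.94), HLA-C (-0.80) and CALR (-0.47) fell, and after shMETTL14, PDIA3 (-0.98), CALR (-0.84), CANX (-0.72) and B2M (-0.70) did. IRF1 rose after both knockdowns, by 0.85 and 0.78. HLA genes share reads with near-identical copies and are uncertain.

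Substrates were mostly below the filter. Of those of the glutaminyl cyclases, 3 of 11 were tested: APP rose by 0.48 in senescence (SE 0.13, edgeR adjusted p = 0.0078), while CCL2 fell by 0.87 (SE 0.31, edgeR adjusted p = 0.034) and CD47 by 0.74 (SE 0.15, edgeR adjusted p = 0.00039). CCL2 and CD47 fell after shMETTL3, by 1.55 and 0.66, and none of the 3 passed the test after shMETTL14. Of DPP4 and FAP substrates, 3 of 15 were tested: the collagen genes COL1A1 and COL1A2 fell in senescence, with log2 fold changes of -1.49 and -1.54, and CXCL10, with a mean of 11.8 reads, rose by 1.56. CXCL10 fell after shMETTL3, and all 3 fell after shMETTL14, among them COL1A1 (-0.56) and COL1A2 (-1.28). Of the peptides cut by neprilysin and aminopeptidase N, 3 of 10 were tested: APP rose in senescence, and ADM, which encodes adrenomedullin, fell by 1.33 (SE 0.20, edgeR adjusted p = 1.6e-05) after shMETTL3. None of the 3 passed the test after shMETTL14.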

How the data were processed

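fastGRO-seq was performed in IMR90 ER:RAS cells, 2 libraries in each of 4 groups taken from the labels. Per the labels, nascent nuclear RNA went into directional libraries, and STAR and hg19 are named. The authors deposited raw counts per gene made with HOMER over whole gene bodies, without normalization and with replicates kept apart, beside each gene's length (used here for RPKM). The file header names 1 strand. Genes of at least 100 reads on average that lay inside a gene of the opposite strand gave 61 pairs. In 1 pair the outer gene had fewer reads in a library. An outer gene is longer and can hold more reads either way, so whether overlapping genes share reads was not settled. The study describes the fastGRO-seq experiments in proliferating and senescent cells as biologically independent; for the knockdown groups the labels give replicate numbers only, and p-values measure the spread between these libraries.

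Counts were fitted across all 8 libraries with edgeR 4.0.16 in R 4.3.3 (quasi-likelihood test, TMM, filterByExpr with a minimum count of 10, Benjamini-Hochberg adjusted p below 0.05). Library totals were 14897360 to 20306299. The biological coefficient of variation was 10.6%. The alternatives were DESeq2 1.42.0, library size alone, upper quartile normalization, no filter, only the 2 groups compared, a replicate block, no ribosomal RNA rows and each library left out. The tests were tried on simulated data. Members and lists were chosen with earlier results of these data known. All 10 members are named, as are their nearest genes where their counts bear on a member, METTL3 and METTL14, and from each list the called genes with the largest changes, at most 3 in each direction, with a mean of at least 20 reads, plus any gene a count of 5 or fewer is about. The text gives list genes for the senescence and knockdown comparisons, and PREP from the others. Promoter windows came from RefSeq (GRCh38.p14). Plots were drawn with matplotlib 3.10.9.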

Additional observations from a re-analysis of the deposited data

Results flagged for a closer look

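In 4 members the effects of the knockdowns differed by a direct test of shMETTL14 against shMETTL3 cells. In the same test, 18.7% of all genes were called lower and 16.5% higher. The log2 fold change was -2.33 for MME, -1.60 for FAP, -1.49 for ERAP2 and -0.61 for DPP4, lower after shMETTL14 in 4 of 4 comparisons of single libraries for each gene, with MME at -1.85 without shMETTL14 replicate 1 and -3.07 without replicate 2, and each passed edgeR's quasi-likelihood test with Benjamini-Hochberg adjustment. MME and FAP each rose after shMETTL3 and fell after shMETTL14 against the same senescent shControl libraries. The rise of MME lost its call with DESeq2 (adjusted p = 0.29) and without senescent shControl replicate 2 (edgeR adjusted p = 0.19), and the fall of FAP without shMETTL14 replicate 1 (0.11) and with library size alone (0.087).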

How the results depend on the processing

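Of 630 values of the 7 tested members under the alternatives, 553 kept their direction and their side of the threshold, 39 lost a call, 17 gained one and 21 changed sign. Of 180 values of ANPEP and QPCT, given with no test, 1 changed sign and 4 moved by more than the spread between replicates. A further 1 was flagged as stronger, QPCT in shMETTL14 against shMETTL3 cells, at -1.08 with library size alone. The calls in shMETTL14 against shMETTL3 cells held throughout.

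With DESeq2, the count of members lower in senescence was 0, that higher after shMETTL3 was 1, and those higher and lower in shMETTL14 against control were 1 and 1. DESeq2 also called fewer of all genes: 795 lower in senescence (1702 with edgeR) and 883 higher after shMETTL3 (1574). In shMETTL14 against control it called 1615 higher and 1630 lower (2531 and 2636). Without ribosomal RNA rows, 0 members were lower in senescence, where 1596 of all genes were. With library size alone, 2 were higher and 2 lower in senescence, and 5 were higher after shMETTL3. That scaling split the calls over all genes 752 higher to 5015 lower in senescence, against 1711 to 1702 with TMM, 5287 to 353 after shMETTL3 (1574 to 1434), 3163 to 709 after shMETTL14 (1175 to 1545), 1177 to 3486 in shMETTL14 against shMETTL3 (2118 to 2399) and 1826 to 3078 in shMETTL14 against control (2531 to 2636). ANPEP then stood at 0.136 RPKM in control, 0.738 in senescent shControl and 0.27 after shMETTL3, with log2 fold changes of 2.44 in senescence, -1.45 after shMETTL3 and -1.46 after shMETTL14, and QPCT at -0.89 after shMETTL3.

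Signs that changed with library size alone were DPP4 in senescence (-0.024), LNPEP, ERAP1 and QPCTL after shMETTL3 (0.47, 0.57 and 0.59), LNPEP, ERAP1 and DPP4 after shMETTL14 (0.0141, 0.0462 and 0.156), and ANPEP and QPCTL in shMETTL14 against shMETTL3 (-0.0117 and -0.203). Among these ERAP1 after shMETTL3 alone was called (edgeR adjusted p = 0.018). QPCTL after shMETTL3 was at 0.0076 with DESeq2 and 0.0011 without ribosomal RNA rows. These shifts follow the scaling itself; the cause of other changes was not tested.

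With a library left out, members called higher and lower ranged over 2 to 5 and 0 to 1 in senescence, 1 to 3 and 0 after shMETTL3, 0 and 2 to 3 after shMETTL14, 0 and 4 in shMETTL14 against shMETTL3, 4 to 5 and 0 in shMETTL3 against control, and 1 to 4 and 1 to 2 in shMETTL14 against control. The lowest counts came without control replicate 2 for senescence (2) and shMETTL14 against control (1), and without senescent shControl replicate 2 for shMETTL3 (1). Values that changed sign then, none of them called, ranged over -0.36 to 0.00899 for ERAP1 in senescence, over -0.424 to 0.036 for LNPEP, -0.123 to 0.0146 for ERAP1, -0.0189 to 0.508 for ERAP2 and -0.258 to 0.26 for QPCTL after shMETTL3, over -0.264 to 0.319 for QPCTL after shMETTL14, and over -0.371 to 0.0871 for LNPEP and -0.247 to 0.287 for QPCTL in shMETTL14 against shMETTL3. Where a group kept 1 library, that library was assumed to vary like the other groups.

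Replicate numbers did not pair the samples: deviations of same-numbered libraries correlated at -0.06 to 0.26 over 6318 genes. With the replicate block, senescence had 1731 genes higher and 1673 lower, and QPCTL in shMETTL14 against control lost its call (edgeR adjusted p = 0.053). Depth limits ENPEP, QPCT and QPCTL most, at 7, 195 and 191 reads.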
